A study of Mus musculus with 6 samples.

Results

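Sterol and fatty acid synthesis genes were examined in mouse pro-B cells in which the transcription factor gene Foxo1 had been deleted with tamoxifen. The genes were chosen by their symbols: 34 genes of the pathway were listed, and 33 of them were paired by a single symbol with a probe set of the array, out of 19937 genes so paired. Acat2, a cytosolic acetyl-CoA acetyltransferase, was the member without such a probe set and has no value here. Where a gene had several probe sets, the brightest stood for it. The samples were 3 tamoxifen samples, given 1 µM tamoxifen for 2 days, and 3 untreated samples. All 6 came from pro-B cells transformed with v-Abl, a viral oncogene that holds B lineage cells at an early stage in culture. All had the genotype Foxo1f/f; ERCre on a C57/BL6 background, that is loxP-flanked Foxo1 alleles and a Cre recombinase that tamoxifen switches on. Per the labels the cells were divided, one portion receiving the drug and the other none. No tamoxifen-treated cells that keep their Foxo1 were analysed here, so an effect of the drug and an effect of Foxo1 loss cannot be told apart. Nothing in the labels says that the samples of a group were separate cultures. The p-values therefore measure how far these samples spread, which may be technical.

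Cholesterol is built from acetyl-CoA through mevalonate, isoprenoid diphosphates and squalene, and then through a chain of sterol intermediates made in the endoplasmic reticulum. Most enzymes of this route, and those that build and desaturate fatty acids, are transcribed under the SREBP factors, which Scap carries to the Golgi when sterols are scarce and which Insig proteins hold back when sterols are plentiful. SREBPs act at sterol regulatory elements in promoters, usually beside the factor NF-Y, and dividing lymphocytes use the pathway to make membrane. Tamoxifen is known to bind the sterol isomerase Ebp and, together with the reductase Dhcr7, the microsomal site that these proteins form.

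Foxo1, the deleted gene, had intensities of 116, 151 and 134 in tamoxifen samples 1, 2 and 3, against 806, 624 and 512 in untreated samples 1, 2 and 3. The groups did not overlap, and Foxo1 fell by 2.13 ± 0.15 (SE) on the log2 scale (limma adjusted p = 0.0178). The sources used here do not say if the probes fall inside the deleted stretch. Array medians lay between 100.9 and 109.1. All 5 markers of the B lineage (Cd79a, Cd79b, Vpreb1, Igll1 and Ebf1) were above the upper quartile of every array, with summed intensities of 11483 to 12653 in tamoxifen cells and 9796 to 11478 in untreated cells. Markers of myeloid cells were below the median of every array (3 of 3). Of the T cell, adipocyte and hepatocyte markers 2 of 3 each were below it on every array. Of the others Cd3e and Apoa1 were above it on some arrays, and the adipocyte marker Plin1 was above it on every array.

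No sterol or fatty acid synthesis gene differed past the test. The largest was in Insig1, with a log2 fold change of 0.31 ± 0.17 (SE), followed by Hmgcs1 at 0.24 ± 0.25 (SE). Of the 33 genes 11 (33.3%) were higher and 22 lower in tamoxifen cells, where 44.5% of all 19937 genes were higher. That share is also the background of the counts by role given below. The differences lay between -0.20 and 0.31, with a median of -0.04 against -0.01 over all 19937 genes. In limma, adjusted by Benjamini-Hochberg across 34760 probe sets, 0 of the 33 passed an adjusted p of 0.05, where 0.0575% of all probe sets did (0.0374% higher and 0.0201% lower in tamoxifen cells). All 33 had an adjusted p of 0.9995. At an unadjusted p under 0.05 the count was also 0 of 33, where 5.11% of all probe sets passed (2.97% higher and 2.14% lower). The groups did not overlap for 1 of the 33, Acaca, against 9.89% of all probe sets (5.03% with tamoxifen above and 4.87% with tamoxifen below, as in Acaca). These counts do not show that the genes behaved alike in both groups, because the 95% intervals were wide: that of Scd1 ran from -0.76 to 1.14 and that of Hmgcs1 from -0.36 to 0.83. Most differences had no settled sign, since 23 of the 33 genes changed sign when some array was left out, 13 of them without tamoxifen sample 1 and 10 without untreated sample 1.

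Tamoxifen sample 1 was low for most of the genes, though Ebp was highest there. How far the genes varied together was not measured. After quantile normalisation tamoxifen sample 1 held the lowest of the 6 values for 24 of the 33 genes (72.7%), where it was the lowest for 21.9% of all named genes. The share depended on the scaling, with 51.5% against 15.96% of named genes when arrays were scaled to a common median and 63.6% against 29.76% on the deposited values. Tamoxifen sample 3 held the highest value for 16 of the 33 (48.5%, against 13.6% of named genes). Within the untreated group sample 1 was the lowest for 18 of the 33, against 4806 of the 19937 named genes. In 17 of the 33 (51.5%) sample 1 was the lowest of its own 3 in both groups, against 13.0% of named genes. The labels do not say whether a shared number stands for a shared culture or day. Tamoxifen sample 1 also had the lowest array median (100.9) and the highest upper quartile (298.8, against 273.1 to 293.0 on the other arrays). Its probe sets deviated from their group means with an SD of 0.16 on the log2 scale. That SD was 0.12 in tamoxifen samples 2 and 3, and 0.14 to 0.17 in the untreated samples.

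**Figure D1:**
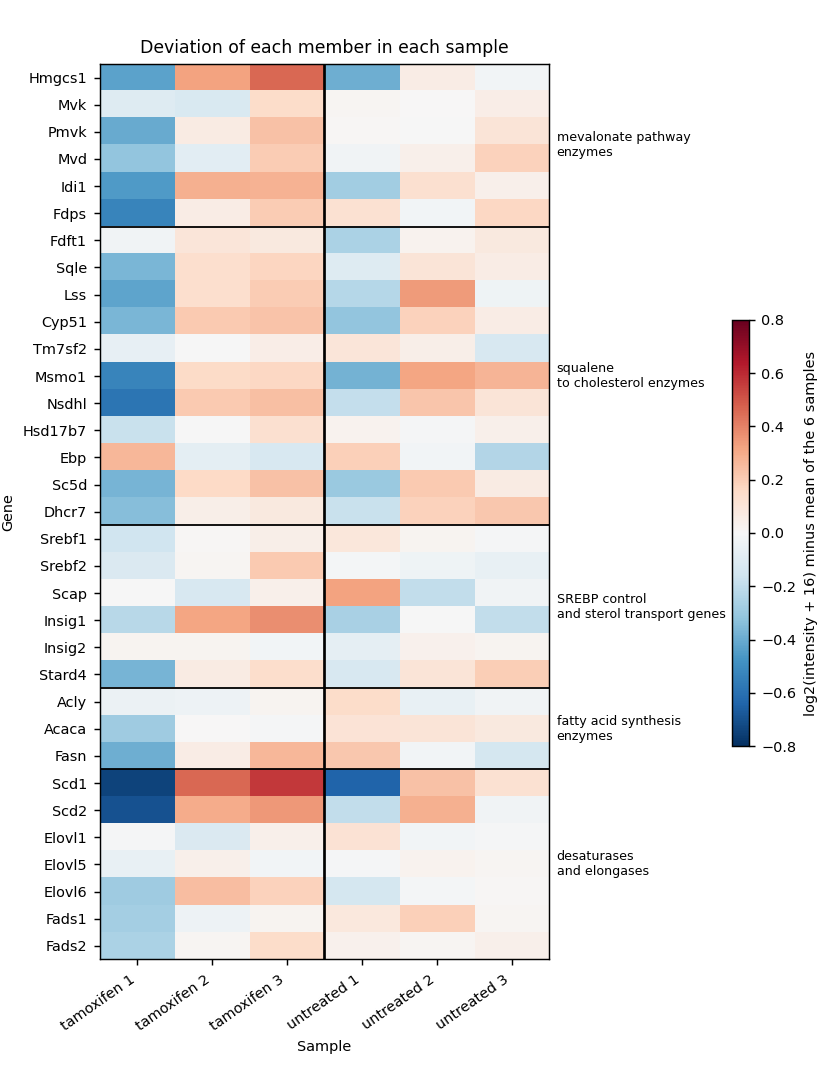
Each row is one of the 33 measured genes and each column a sample, and the colour is the log2(intensity + 16) value after quantile normalisation minus the gene's mean over the 6 samples. Blue marks values below that mean: tamoxifen sample 1 is the lowest sample for 24 genes, Ebp being highest there, and untreated sample 1 is low for many of the cholesterol enzymes; scaled to a common median the count of genes lowest in tamoxifen sample 1 is 17.

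By role, the deviation from each gene's own mean in tamoxifen sample 1 was greatest in the cholesterol enzymes. The mevalonate pathway enzymes had median deviations of -0.41, 0.06 and 0.22 (log2) in tamoxifen samples 1, 2 and 3, against -0.01, 0.02 and 0.08 in untreated samples 1, 2 and 3. The enzymes from squalene to cholesterol had -0.36, 0.13 and 0.17 in tamoxifen samples and -0.19, 0.18 and 0.06 in untreated samples. From squalene onward sample 1 was thus the low sample of each group. The desaturases and elongases had -0.27, 0.04 and 0.14 against -0.01, 0.03 and 0.02, and the control and transport genes had -0.14, 0.02 and 0.09 against -0.04, 0.01 and -0.02. The fatty acid synthesis enzymes, 3 in number, had -0.29, 0.0045 and 0.02 against 0.15, -0.02 and -0.03, so that untreated sample 1 was their high sample. Over all named genes the medians stayed between -0.03 and 0.03. The highest sample exceeded the lowest by a median of 1.44-fold over the 33 genes, compared with 1.20-fold over all named genes, and 19 of the 33 had a range above the 90th percentile of named genes. At the narrow end Elovl5 ranged by 1.07-fold and at the wide end Scd1 by 2.48-fold.

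**Figure D2:**
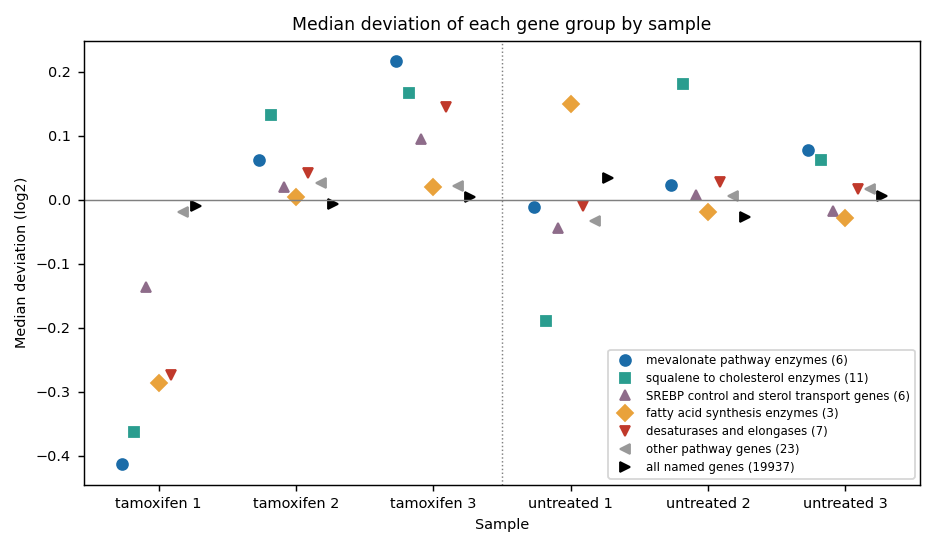
Median deviation (log2) of each gene group in each sample, with the number of genes in brackets and the tamoxifen samples on the left. The groups of synthesis genes lie between -0.41 and -0.14 in tamoxifen sample 1, while the other pathway genes (grey) and all named genes (black) lie near 0 in every sample.

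Promoters of the genes, which were chosen by pathway, were searched for 4 motifs. Whether a motif went with the values of the samples was not tested. Windows from 250 bases before to 50 after the start were given by RefSeq (GRCm38.p6) for 26 of the 33 genes and for 15613 of the named genes. The NF-Y box CCAAT, read on both strands, was in a window of 22 of the 26 (84.6%), against 41.7% of named genes. The E-box CACGTG was in 6 of the 26 (23.1%, against 9.50%), in Dhcr7, Elovl5, Hsd17b7, Insig1, Sc5d and Scap. The sterol regulatory element, searched as TCACNCCAC, was in Hmgcs1 alone (3.85%, against 1.40%), and the forkhead motif GTAAACA in Elovl6 alone (3.85%, against 3.54%). A match is a run of letters and not a measured binding site. Only exact matches were counted, so a window without a match may still hold a variant of the element. The windows of Hmgcs1 (plus strand, chr13:119690101-119690400), Insig1 (plus strand, chr5:28071162-28071461), Nsdhl (plus strand, chrX:72918271-72918570) and Elovl6 (plus strand, chr3:129532136-129532435) are shown, the first for its sterol element and 4 NF-Y boxes, the second as the gene with the largest difference, the third as a low gene of tamoxifen sample 1 with 4 NF-Y boxes, and the last for its forkhead motif. Mvk, whose window is not shown, had more NF-Y boxes (5) than Nsdhl. After normalisation its lowest value was in tamoxifen sample 2, narrowly below that in tamoxifen sample 1. Capitals mark every match of the 4 motifs.
Hmgcs1: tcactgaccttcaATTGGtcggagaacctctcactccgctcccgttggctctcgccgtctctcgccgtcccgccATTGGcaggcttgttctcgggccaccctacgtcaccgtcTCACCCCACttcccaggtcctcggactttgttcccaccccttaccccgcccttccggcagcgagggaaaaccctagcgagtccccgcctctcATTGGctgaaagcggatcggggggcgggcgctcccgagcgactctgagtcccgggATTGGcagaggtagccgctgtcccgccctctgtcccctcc
Insig1: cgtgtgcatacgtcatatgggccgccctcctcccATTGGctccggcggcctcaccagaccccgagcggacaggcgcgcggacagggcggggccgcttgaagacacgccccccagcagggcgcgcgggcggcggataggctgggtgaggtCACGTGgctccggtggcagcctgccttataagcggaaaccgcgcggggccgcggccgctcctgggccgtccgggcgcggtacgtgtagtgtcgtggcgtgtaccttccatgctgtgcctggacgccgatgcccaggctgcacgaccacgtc
Nsdhl: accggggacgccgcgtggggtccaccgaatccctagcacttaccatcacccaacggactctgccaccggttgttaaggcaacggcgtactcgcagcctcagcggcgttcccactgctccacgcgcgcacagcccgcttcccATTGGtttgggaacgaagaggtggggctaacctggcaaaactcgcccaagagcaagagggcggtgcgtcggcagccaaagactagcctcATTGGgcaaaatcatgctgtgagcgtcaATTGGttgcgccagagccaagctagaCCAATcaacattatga
Elovl6: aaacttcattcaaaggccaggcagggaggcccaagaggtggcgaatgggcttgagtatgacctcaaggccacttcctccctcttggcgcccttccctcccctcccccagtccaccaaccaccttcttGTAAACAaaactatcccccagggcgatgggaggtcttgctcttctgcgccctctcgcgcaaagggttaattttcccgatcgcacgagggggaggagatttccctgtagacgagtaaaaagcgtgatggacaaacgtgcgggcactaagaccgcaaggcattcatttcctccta

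Among the mevalonate pathway enzymes 2 of 6 were higher and 4 lower in tamoxifen cells, and none passed the test. Hmgcs1 (probe set 10412466), which makes the substrate of the committed step and has the sterol element shown above, had intensities of 891, 1372 and 1490 in tamoxifen samples 1, 2 and 3, against 866, 1196 and 1033 in untreated samples. Tamoxifen samples 2 and 3 were above all untreated samples, while tamoxifen sample 1 lay beside the lowest of them. The means were 1251 ± 317 in tamoxifen cells and 1032 ± 165 in untreated cells (SD, n = 3 each), a log2 fold change of 0.24 ± 0.25 (SE). With 1 array left out it was 0.51 without tamoxifen sample 1, 0.13 without tamoxifen sample 2, 0.07 without tamoxifen sample 3 and 0.10 without untreated sample 1. Idi1 (10482762), which isomerises isopentenyl diphosphate, had 1106, 1698 and 1687 in tamoxifen cells, against 1212, 1601 and 1390 in untreated cells. Sample 1 was the lowest in each group, and the difference was 0.07 ± 0.22 (SE). A second probe set of Idi1 had a wider spread, 354, 903 and 733 in tamoxifen cells against 471, 766 and 495 in untreated cells, with sample 1 again the lowest of each group. Fdps (10499483), which makes farnesyl diphosphate, had 956, 1325 and 1446 in tamoxifen cells, against 1455, 1312 and 1377 in untreated cells. Tamoxifen sample 1 stood below the other samples, which lay close together, and the log2 fold change was -0.18 ± 0.19 (SE) with it and 0.04 without it. The kinases Mvk and Pmvk and the decarboxylase Mvd, which act in turn between mevalonate and isopentenyl diphosphate, had log2 fold changes of -0.05, -0.07 and -0.13. Pmvk showed a single low sample, with 224, 305 and 345 in tamoxifen cells, against 296, 302 and 301 in untreated cells.

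Of the 11 enzymes from squalene to cholesterol 4 were higher and 7 lower in tamoxifen cells, between -0.14 and 0.10, and none passed the test. Sqle (10424349), the squalene epoxidase and a rate-limiting enzyme, had intensities of 1019, 1326 and 1346 in tamoxifen cells, against 1183, 1362 and 1210 in untreated cells. The groups overlapped, with tamoxifen sample 1 the lowest. Sqle averaged 1230 ± 183 in tamoxifen cells and 1252 ± 96.4 in untreated cells (SD, n = 3 each), a log2 fold change of -0.04 ± 0.15 (SE) whose 95% interval was -0.41 to 0.33. Fdft1 (10420730), the squalene synthase, had 1552, 1555 and 1520 in tamoxifen cells, against 1283, 1542 and 1481 in untreated cells. At this probe set the low sample was untreated sample 1 and not tamoxifen sample 1. A second, dimmer probe set of Fdft1 did have its lowest value in tamoxifen sample 1, with 661, 786 and 747 in tamoxifen cells, against 664, 820 and 679 in untreated cells. The log2 fold changes were 0.10 ± 0.10 (SE) at the brighter and 0.01 at the dimmer probe set. Nsdhl (10600082), a sterol dehydrogenase of the demethylation steps, had 797, 1268 and 1292 in tamoxifen cells, against 1004, 1347 and 1136 in untreated cells. Sample 1 was the lowest of each group for Nsdhl, as it was for Msmo1, the methylsterol monooxygenase that acts before it. Msmo1 (10578916) had 1175, 1732 and 1735 in tamoxifen cells, against 1266, 2031 and 1845 in untreated cells, a log2 fold change of -0.14 ± 0.26 (SE). Cyp51 (10527920), the lanosterol demethylase, had 1382, 1868 and 1884 in tamoxifen cells, against 1371, 1909 and 1638 in untreated cells. Its sample 1 values were nearly equal in the groups and were the lowest of each. Sc5d (10592585), a sterol desaturase near the end of the route, had 919, 1204 and 1266 in tamoxifen cells, against 921, 1315 and 1083 in untreated cells, again with sample 1 the lowest of each group. Lss (the lanosterol synthase), Cyp51 and Sc5d had log2 fold changes of -0.06, 0.05 and 0.02. Tm7sf2, a sterol reductase, and Hsd17b7, a sterol ketone reductase, had -0.01 and -0.04, and Tm7sf2 was the single member whose intensity lay below the array median on any array.

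The tamoxifen-binding proteins of the route, Ebp and Dhcr7, had no difference past the test. Ebp (10603485) had intensities of 248, 186 and 181 in tamoxifen samples 1, 2 and 3, against 228, 196 and 166 in untreated samples 1, 2 and 3. Here sample 1 was the highest of each group, the reverse of the order seen for most of the pathway. Ebp averaged 205 ± 37.5 in tamoxifen cells and 196 ± 31.0 in untreated cells (SD, n = 3 each), a log2 fold change of 0.04 ± 0.15 (SE) and a 95% interval of -0.31 to 0.39. Dhcr7 (10559312), the reductase of the closing step to cholesterol, had 301, 375 and 386 in tamoxifen cells, against 325, 433 and 402 in untreated cells. Its groups overlapped with sample 1 low in both. Dhcr7 averaged 354 ± 46.0 in tamoxifen cells and 387 ± 55.8 in untreated cells (SD, n = 3 each), and the log2 fold change was -0.14 ± 0.16 (SE) with all arrays and -0.01 without tamoxifen sample 1.

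**Figure D3:**
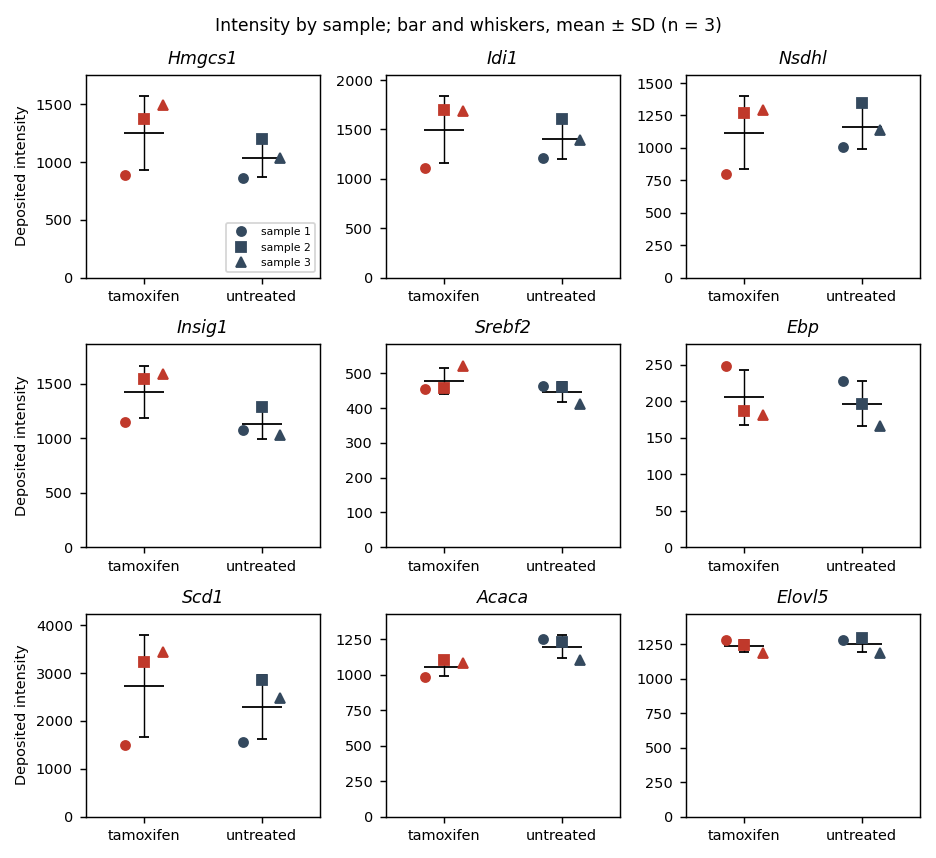
Deposited intensity (linear scale from 0) of 9 of the genes in each sample, tamoxifen in red and untreated in dark blue, with the symbol giving the sample number and the bar the mean ± SD (n = 3). Sample 1 (circle) is low in both groups for Hmgcs1, Idi1, Nsdhl and Scd1, high in both for Ebp, and Acaca is the gene whose groups do not overlap.

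Among the genes that control the SREBPs or move sterols 3 of 6 were higher and 3 lower in tamoxifen cells. Insig1 (10520362), which retains Scap in the endoplasmic reticulum and is itself an SREBP target, had intensities of 1153, 1543 and 1587 in tamoxifen cells, against 1075, 1285 and 1029 in untreated cells. Tamoxifen samples 2 and 3 were above every untreated sample, and tamoxifen sample 1 lay among the untreated samples. Insig1 averaged 1428 ± 239 in tamoxifen cells and 1129 ± 136 in untreated cells (SD, n = 3 each), a log2 fold change of 0.31 with a 95% interval of -0.10 to 0.71. It was 0.50 without tamoxifen sample 1 and 0.20 without tamoxifen sample 3. Insig2, its paralog, had 384, 355 and 347 in tamoxifen cells, against 341, 377 and 339 in untreated cells, a log2 fold change of 0.01 ± 0.06 (SE). Its range over the 6 normalised values was 1.08-fold, far narrower than the 1.55-fold of Insig1. Srebf2 (10425695), the main SREBP of cholesterol synthesis, had 456, 457 and 522 in tamoxifen cells, against 465, 462 and 413 in untreated cells. The groups overlapped with tamoxifen sample 3 the highest, and tamoxifen sample 1 was not set apart on the deposited scale. Srebf1 (10386473), the SREBP tied to fatty acid synthesis, had 187, 210 and 216 in tamoxifen cells, against 223, 215 and 204 in untreated cells. Srebf2 averaged 478 ± 37.8 in tamoxifen cells and 447 ± 29.0 in untreated cells, and Srebf1 205 ± 15.4 in tamoxifen cells and 214 ± 9.65 in untreated cells (SD, n = 3 each). Srebf2 and Srebf1 had log2 fold changes of 0.07 ± 0.09 and -0.07 ± 0.08 (SE). Scap (10589511) had 564, 473 and 531 in tamoxifen cells, against 681, 474 and 486 in untreated cells. Sample 1 was the highest of each group on the deposited scale, but not of the tamoxifen group after normalisation. Scap had a log2 fold change of -0.06 ± 0.14 (SE), which became 0.08 without untreated sample 1. Stard4, a sterol transfer protein, had -0.11 ± 0.16 (SE), with tamoxifen sample 1 the lowest of 578, 720 and 755 in tamoxifen cells, against 657, 786 and 757 in untreated cells.

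The enzymes that build fatty acids were all lower in tamoxifen cells (3 of 3), none past the test. Acaca (10394538), the acetyl-CoA carboxylase that commits carbon to fatty acids, had intensities of 981, 1102 and 1082 in tamoxifen cells, against 1253, 1232 and 1106 in untreated cells. Its groups did not overlap, though tamoxifen sample 2 and untreated sample 3 all but met. Acaca averaged 1055 ± 64.8 in tamoxifen cells and 1197 ± 79.4 in untreated cells (SD, n = 3 each), a log2 fold change of -0.19 ± 0.09 (SE) and a 95% interval of -0.41 to 0.03. Its second, dimmer probe set gave -0.26 ± 0.09 (SE), also without overlap on the normalised scale. The 95% interval of that probe set was -0.48 to -0.04 (limma unadjusted p = 0.0265, limma adjusted p = 0.864). The count of 0 of 33 genes at an unadjusted p under 0.05 rests on the brighter probe set. Without tamoxifen sample 1 the brighter probe set gave -0.10. Fasn (10393970), the fatty acid synthase, had 414, 522 and 604 in tamoxifen cells, against 609, 522 and 435 in untreated cells. On this deposited scale Fasn was lowest in tamoxifen sample 1 and highest in untreated sample 1, while after normalisation tamoxifen sample 3 was the highest. The means of 514 ± 95.5 in tamoxifen cells and 522 ± 87.4 in untreated cells (SD, n = 3 each) were close. Acly, which supplies cytosolic acetyl-CoA from citrate, had a log2 fold change of -0.04 ± 0.08 (SE).

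Of the 7 desaturases and elongases 2 were higher and 5 lower in tamoxifen cells. Scd1 (10467979), which makes monounsaturated fatty acids, had the widest range of all 33 genes, with 1508, 3236 and 3434 in tamoxifen cells, against 1562, 2847 and 2474 in untreated cells. Sample 1 had the lowest Scd1 value of its group in both, and its range was wider than that of 99.7% of named genes. Scd1 averaged 2726 ± 1060 in tamoxifen cells and 2294 ± 661 in untreated cells (SD, n = 3 each). The log2 fold change was 0.19 ± 0.40 (SE) with all arrays, 0.61 without tamoxifen sample 1 and -0.08 without untreated sample 1. Scd2 (10463355), a close paralog that can share signal with Scd1 on an array, had 279, 536 and 558 in tamoxifen cells, against 389, 564 and 407 in untreated cells. It showed the same low sample in each group, and a log2 fold change of -0.03 ± 0.29 (SE). Fads1 (10461439), a desaturase of polyunsaturated fatty acids, had 299, 333 and 351 in tamoxifen cells, against 376, 413 and 333 in untreated cells. Its groups overlapped by 1 untreated sample, and its log2 fold change of -0.20 ± 0.10 (SE) was the most negative of the 33, with a 95% interval of -0.43 to 0.04. Fads2, which acts before Fads1, had -0.06. Among the elongases Elovl6, which extends palmitate and holds the forkhead motif shown above, had 1980, 2653 and 2501 in tamoxifen cells, against 2121, 2284 and 2196 in untreated cells. Tamoxifen sample 1 was the lowest of all and tamoxifen samples 2 and 3 the highest, and the log2 fold change was 0.09 ± 0.15 (SE). Elovl5 (10587284), which extends polyunsaturated chains, was the steadiest of the 33, with 1280, 1244 and 1189 in tamoxifen cells, against 1278, 1297 and 1183 in untreated cells. Sample 1 was not low for Elovl5 on the deposited scale. Elovl1, which extends very long chains, and Elovl5 had log2 fold changes of -0.06 and -0.02.

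The balance of higher and lower genes depended on tamoxifen sample 1. Without it 22 of the 33 genes (and 47.6% of all named genes) were higher in tamoxifen cells, against 11 of the 33 (and 44.5% of all named genes) with it. The median log2 fold change was then 0.05 against -0.01 over all named genes. Of the 11 enzymes from squalene to cholesterol 9 were then higher, with a median of 0.13. In that fit 3 of the 33 genes had an unadjusted limma p under 0.05, all higher in tamoxifen cells, where 5.56% of all probe sets had one (2.85% higher). They were Insig1 (0.50 ± 0.10, SE), Hmgcs1 (0.51 ± 0.15) and Elovl6 (0.26 ± 0.08). None passed adjustment over all probe sets, the lowest limma adjusted p being 0.462 for Insig1. The remaining tamoxifen samples are 2 in number, so this fit has fewer arrays, and leaving out tamoxifen sample 3 in its place gave 6 of 33 higher. Tamoxifen sample 1 was singled out as the lowest sample for 24 of these same 33 genes, so leaving it out was bound to raise their differences. Untreated sample 1, the lowest untreated sample for 18 of the 33, was kept. The unadjusted p-values of that fit carry this choice.

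**Figure D4:**
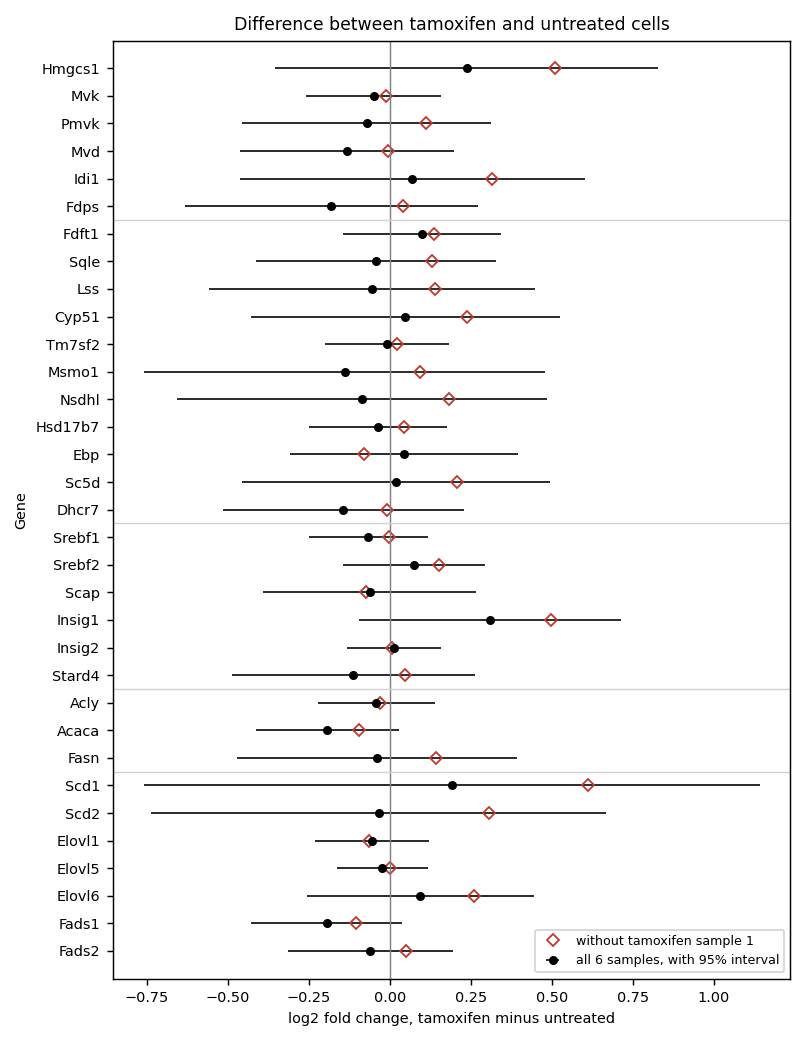
Log2 fold change of each gene, tamoxifen minus untreated, with black points and 95% intervals for all 6 samples and red diamonds for the fit without tamoxifen sample 1. Every black interval crosses 0, and the diamonds of Scd1, Hmgcs1 and Insig1 lie furthest to the right at 0.61, 0.51 and 0.50.

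Of 29 further genes of the pathway 23 were measured, 13 higher and 10 lower in tamoxifen cells, and 0 passed limma over all probe sets while 2 had an unadjusted p under 0.05, both higher (5.11% of all probe sets had one, 2.97% higher). Npc2, which exports cholesterol from lysosomes, had intensities of 2034, 1858 and 1929 in tamoxifen cells, against 1718, 1723 and 1405 in untreated cells. Its groups did not overlap, and it was higher by 0.26 ± 0.07 (SE, log2) at a limma adjusted p = 0.648. Lipa, the lysosomal lipase that frees cholesterol from its esters, had 646, 529 and 524 in tamoxifen cells, against 451, 536 and 431 in untreated cells. Lipa measured 0.24 ± 0.08 (SE, log2) at a limma adjusted p = 0.882, and its groups overlapped on the deposited scale. Osbp, an oxysterol-binding transport protein, had 398, 331 and 325 in tamoxifen cells, against 323, 324 and 291 in untreated cells, a log2 fold change of 0.13 ± 0.07 (SE). Tmem97, a sterol and sigma receptor protein, had 443, 372 and 374 in tamoxifen cells, against 539, 474 and 362 in untreated cells, a log2 fold change of -0.21 ± 0.12 (SE). The groups of Osbp all but met, and untreated sample 3 put the groups of Tmem97 in overlap. On the normalised scale the groups did not overlap for Npc2, Lipa and Osbp, all above in tamoxifen cells, and for Fads3, a desaturase-like gene, below. Over all probe sets 5.03% had tamoxifen above and 4.87% below. Tamoxifen sample 1 was the lowest sample for 7 of these 23 genes (30.4%), against 24 of 33 for the sterol and fatty acid synthesis genes, a difference that was not tested. Among those 7 was Abcg1, a sterol exporter, with 157, 289 and 288 in tamoxifen cells, against 286, 269 and 261 in untreated cells. For Abcg1 the other 5 samples lay close together and tamoxifen sample 1 stood alone below them.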

How the data were processed

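Total RNA of 6 samples was converted to biotinylated cRNA from 200 ng with a NuGen kit, per the labels' protocols. The authors deposited 1 linear intensity per probe set and array. Their summary of probes, background correction and normalisation are not given in the sources used here. Printed intensities are the deposited values. For tests log2(intensity + 16) was quantile normalised, and groups were compared with limma 3.58.1 in R 4.3.3 (lmFit and eBayes, two-sided, no block), p-values being adjusted by Benjamini-Hochberg over 34760 probe sets and read at 0.05. Fold changes are on that log2 scale, which understates those of dim genes. A platform table gave 21640 probe sets 1 symbol and 1321 several, and 11799 were not listed. The number of arrays limits the precision.

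The members and lists were chosen with earlier results of these data known. All measured members are named. Values by sample are given for the control genes, the main enzymes, Ebp, Dhcr7, members without overlap and those with the lowest p or largest differences, and of the further pathway genes for the 4 with the lowest p. Those of Idi1, Fdps, Pmvk, Nsdhl, Msmo1, Cyp51, Sc5d, Insig2, Stard4, Elovl5, Elovl6 and Abcg1, and the name of Fads3, were added after their values were seen. Alternatives were other normalisations, pseudocounts of 1 and 64, bright probe sets only, an intensity trend, averaged probe sets, the replicate number as a block, and each array left out. The count of lowest samples was added after the data were seen. The fit was tested on simulated data whose changes were larger than any difference of the members. That test does not show whether differences as small as theirs would be found. Figures were drawn with matplotlib 3.10.9.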

Additional observations from a re-analysis of the deposited data

How the results depend on the processing

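Under the 9 settings that kept all arrays, 296 of 296 log2 fold changes of the members kept their sign, and 0 members passed the adjusted test in any setting. Much of that agreement in sign was fixed beforehand. The intensity trend, the replicate block and the choice of bright probe sets cannot alter a log2 fold change. Averaging alters it only for genes with several probe sets. Only the other normalisations and the pseudocounts could change the sign of every member. The lowest adjusted p of a member was 0.462, for Insig1 without tamoxifen sample 1. The number of arrays limits what could be shown. With 1 array left out the members' log2 fold changes that changed sign ran from -0.21 to 0.11 for Pmvk, -0.054 to 0.32 for Idi1, -0.33 to 0.040 for Fdps, -0.0027 to 0.16 for Fdft1, -0.14 to 0.13 for Sqle, -0.18 to 0.14 for Lss, -0.098 to 0.24 for Cyp51, -0.076 to 0.035 for Tm7sf2, -0.36 to 0.092 for Msmo1, -0.23 to 0.18 for Nsdhl and -0.11 to 0.043 for Hsd17b7. They ran from -0.079 to 0.15 for Ebp, -0.13 to 0.21 for Sc5d, -0.012 to 0.15 for Srebf2, -0.18 to 0.083 for Scap, -0.021 to 0.032 for Insig2, -0.21 to 0.047 for Stard4, -0.081 to 0.022 for Acly, -0.19 to 0.14 for Fasn, -0.079 to 0.61 for Scd1, -0.22 to 0.30 for Scd2, -0.0045 to 0.26 for Elovl6 and -0.15 to 0.050 for Fads2. Over the same fits 6 to 22 members were higher in tamoxifen cells, 0 to 3 had an unadjusted p under 0.05, and the median of the fatty acid synthesis enzymes ran from -0.19 to 0.022.

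At an unadjusted p under 0.05 there was 1 member with arrays scaled to a common median (Insig1), 1 with averaged probe sets (Acaca) and 1 with the replicate block (Insig1), against 0 in the fit reported. Over all probe sets limma called 20. There were 12 calls with no further normalisation, 11 with a pseudocount of 1, 46 among bright probe sets, 12 with an intensity trend and 73 genes with averaged probe sets. With 1 array left out there were 0 to 6 calls, and with a replicate block 0, with 2525 probe sets at an unadjusted p under 0.05. The share of raised calls was 65%, against 85.7% after scaling to a common median, 83.3% with no further normalisation and 81.8% with a pseudocount of 1. The count of members lowest in tamoxifen sample 1 lay between 17 and 26 of 33 over the settings that kept that sample. Deviations of same-numbered arrays from their group means correlated at 0.256, 0.0547 and 0.302 over all probe sets. Those of differently numbered arrays correlated at -0.420 to 0.248, and untreated sample 2 correlated best with tamoxifen sample 1 (0.103). The fit reported does not pair the samples, and whether the numbers pair them was not tested.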
